A study of Mus musculus with 6 samples.

Results

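Transfer RNA genes of the mouse lens were followed row by row in a table of total RNA sequencing values, in 6 libraries. The members are the 237 rows whose symbol names a transfer RNA and whose mean was at least 1 FPKM, out of 402 transfer RNA rows and 41449 rows in all. FPKM is the number of fragments (sequenced pieces of RNA) on a row, scaled to the length of the row and to the size of the library. The rows were chosen by their mean level over the same libraries, so the levels describe the rows and support nothing, and the minimum of 1 FPKM set aside only rows at 0. The lowest member, n-TNgtt14, had a mean of 1.53 FPKM, and the 165 transfer RNA rows outside were at 0 in every library with a value. The symbols give the amino acid as a letter and the anticodon as its bases, which put the members into 19 amino acids and 41 anticodons. All 10 tyrosine rows were at 0.

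A transfer RNA carries 1 amino acid to the ribosome and reads the codon of the messenger RNA with the 3 bases of its anticodon. Transfer RNA genes are transcribed by RNA polymerase III from promoter elements inside the gene, and the product is then trimmed at both ends, spliced where the gene holds an intron, heavily modified and charged by a synthetase. Many transfer RNA genes exist in identical or nearly identical copies at different places in the genome. The lens fills its fiber cells with crystallin protein, and those cells lose their nuclei and organelles as they mature.

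The 3 wild-type libraries (WT) come from C57BL/6 mice, and the 3 knockout libraries (FNcKO) from fibronectin conditional knockout mice on a mixed background of C57BL/6, 129 and FVB/N. All mice were adults of 2 months, each library was made from 2 lenses, and the labels call the 3 libraries of a genotype biological replicates. The labels name no Cre line or promoter for the deletion. Strain divided the libraries exactly as genotype did, so the 2 cannot be told apart in any comparison here.

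The shape of these genes can be seen in a pair of arginine rows. They are shown because their values stood on the same unit of FPKM although the rows differ in length. Capitals mark the anticodon, and each sequence runs 5′ to 3′ on the strand of the gene. Both are from GENCODE M21 transcripts on GRCm38: n-TRtct2 at chr3:122292948-122293032 (minus strand) and n-TRtcg5 at chr7:79466419-79466491 (plus strand).
n-TRtct2: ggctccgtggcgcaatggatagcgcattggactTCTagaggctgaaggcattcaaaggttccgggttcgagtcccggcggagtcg
n-TRtcg5: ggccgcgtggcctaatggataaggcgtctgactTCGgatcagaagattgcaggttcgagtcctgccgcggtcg

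The anticodon TCT of n-TRtct2 is read as UCU in the RNA, and TCG of n-TRtcg5 as UCG. n-TRtct2 spans 85 bases, 12 more than the 73 bases of n-TRtcg5, and genes for the UCU arginine transfer RNA are known to carry an intron. n-TRtcg5 was at 0 in every WT library and at 129.4, 261.9 and 0 FPKM in FNcKO, with a limma adjusted p of 0.279 in the test described below.

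Equal values were common. The 237 rows held 115 distinct sets of 6 values when compared within an amino acid: 74 sets were held by 1 row and 41 by several rows, 163 rows together. The largest set was held by 13 aspartate rows. In 30 of the 41 shared sets the rows lay on more than 1 chromosome, up to 6. Members lay on 18 chromosomes, led by chromosome 13 with 60 rows, chromosome 11 with 38, chromosome 3 with 33 and chromosome 1 with 31. In 5 members (n-TEttc8, n-TKctt18, n-TQctg9, n-TRcct4 and n-TVtac3) WT replicate 2 had no value, as in 3578 rows of the table. All 5 equalled another member of the same amino acid in the other libraries, so without them the sets numbered 110. Equal values do not show equal sequences: 1 set joined arginine rows of different anticodons, n-TRtcg4 and n-TRccg2, each at 87.2 FPKM in WT replicate 1 and at 0 elsewhere.

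The values were not continuous. Among rows of 73 bases they were built from a unit that stands for 1 fragment: 87.2, 97.4 and 104.8 FPKM in WT libraries 1 to 3, and 129.4, 131.0 and 139.5 FPKM in FNcKO libraries 1 to 3. The small nucleolar RNA row Snord104, which is not a transfer RNA and has the same length, stood at 20, 18, 14, 16, 11 and 10 of these units. A single fragment was thus worth more FPKM in every FNcKO library than in any WT library. Each value was divided by the unit for its length, and the quotient is called its fragments below. The unit reflects the library size and any scaling the authors applied, which is not given in the sources used here.

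Most rows rested on very few fragments. Of 415 values above 0 in distinct sets, 25.5% lay within 0.01 of a whole number of fragments and 51.8% (215 values) were under 1 fragment. The median was 0.90 fragments and the highest 17.8, in n-TEttc1 of WT replicate 1. Within the same tolerance 67 values equalled 1 fragment, 26 equalled 1/2, 21 equalled 1/3 and 18 equalled 1/4. Added up over the rows of an amino acid that are present in all columns, shares turned back into whole fragments in 68 of 103 sums above 0. These sums, and the amino acid sums below, leave out the 5 rows without a value in WT replicate 2. Shares that fell on those rows are therefore missing from the sums. The intron-bearing n-TRtct2 was at 174.4, 97.4 and 0 FPKM in WT and at 0, 131.0 and 139.5 FPKM in FNcKO. These are 2, 1, 0, 0, 1 and 1 times the unit of 73-base rows, although the row spans 85 bases.

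**Figure D1:**
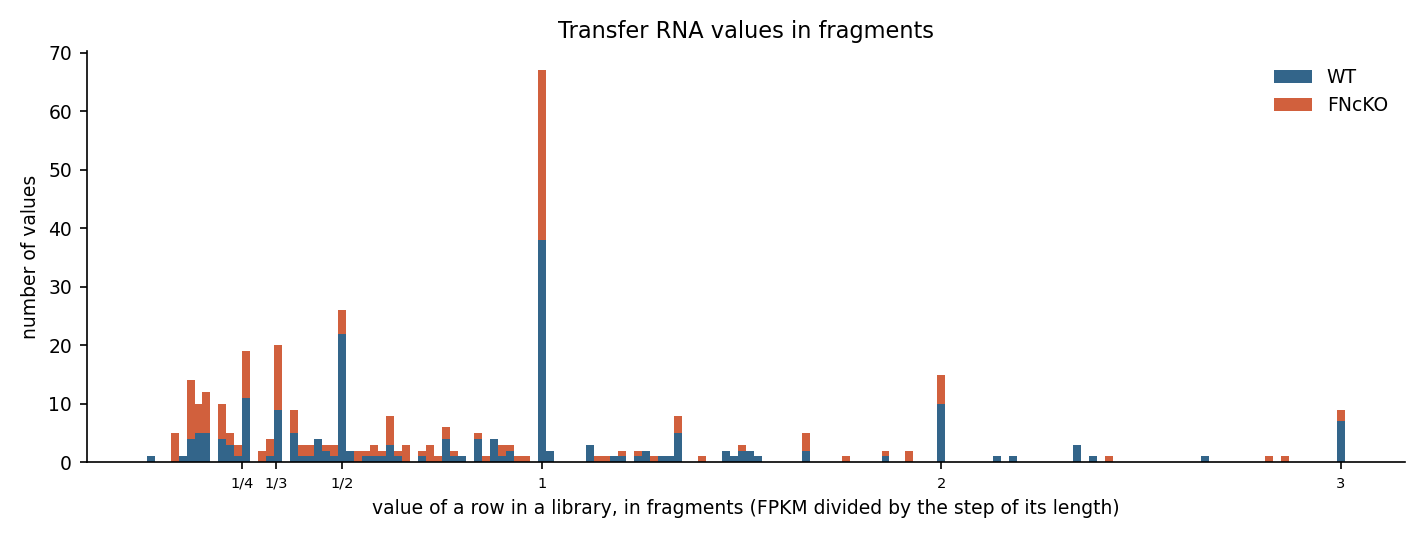
Histogram of transfer RNA values in fragments (FPKM divided by the unit for the length of the row; x axis) against the number of values (y axis), for distinct sets of values and up to 3 fragments, with WT and FNcKO stacked. The tallest bar stands at 1 fragment, with lower peaks at 1/2, 1/3 and 1/4 of 1 fragment and at 2 and 3.

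Transfer RNA as a whole stood lower in the FNcKO libraries. The 232 rows present in all 6 columns added up to 417.0, 356.5 and 346.0 fragments for WT, against 231.6, 105.7 and 216.3 for FNcKO. Brought to the depth of WT replicate 1, these became 417.0, 398.2 and 416.0 fragments for WT (410.4 ± 10.6, SD, n = 3) and 343.7, 158.8 and 346.0 in FNcKO (282.8 ± 107.5, SD, n = 3). The groups did not overlap, and FNcKO replicate 2 lay far under the other FNcKO libraries. In FPKM with identical rows counted once, the sums were 13555, 12327 and 13068 in WT and 10805, 5325 and 11232 in FNcKO, a WT mean 1.42 times the FNcKO mean. The log2 ratio was -0.51, and -0.24 without FNcKO replicate 2. In bulk lenses, fewer cells of a type and less RNA per cell cannot be told apart.

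The number of transfer RNA rows above 0 followed the same order, with 187, 183 and 174 rows in WT and 162, 154 and 164 in FNcKO. Relative to WT replicate 1, the depth read from the unit was 0.895 and 0.832 in the other WT libraries and 0.674, 0.666 and 0.625 in FNcKO, which includes any scaling by the authors. The part of depth in the number of rows above 0 was not tested. The transfer RNA rows held 2.14%, 2.09% and 2.31% of the summed FPKM of the table in WT and 2.00%, 1.13% and 2.08% in FNcKO. These shares also did not overlap, and WT replicate 2 and FNcKO replicate 3 lay next to each other.

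Glycine and glutamate transfer RNAs supplied most fragments: 61.5%, 57.3% and 58.9% in WT and 55.7%, 54.1% and 60.4% in FNcKO, groups that overlapped. Without these 2 amino acids, the remaining rows were summed with equal rows counted once. They still came to 6019, 5609 and 6104 FPKM in WT and 5304, 2708 and 5124 FPKM in FNcKO, again without overlap. Of 19 amino acids, 15 had a lower FNcKO mean in FPKM with equal rows counted once. In depth-scaled fragments the number was also 15, but with proline lower and aspartate higher. In summed FPKM 3 of the 19 amino acids were lower without overlap (glutamate, glycine and glutamine), and 0 stood higher without overlap. Over all single rows tested, 16.3% lay lower without overlap and 9.31% higher, so 3 of 19 is no larger a share. In depth-scaled fragments glutamate and glutamine remained apart, while glycine overlapped. These fragments are the FPKM of every row rescaled for row length, so they are no separate check of depth. No p-value is given for these sums, because the rows were chosen with results of these libraries in view.

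**Figure D2:**
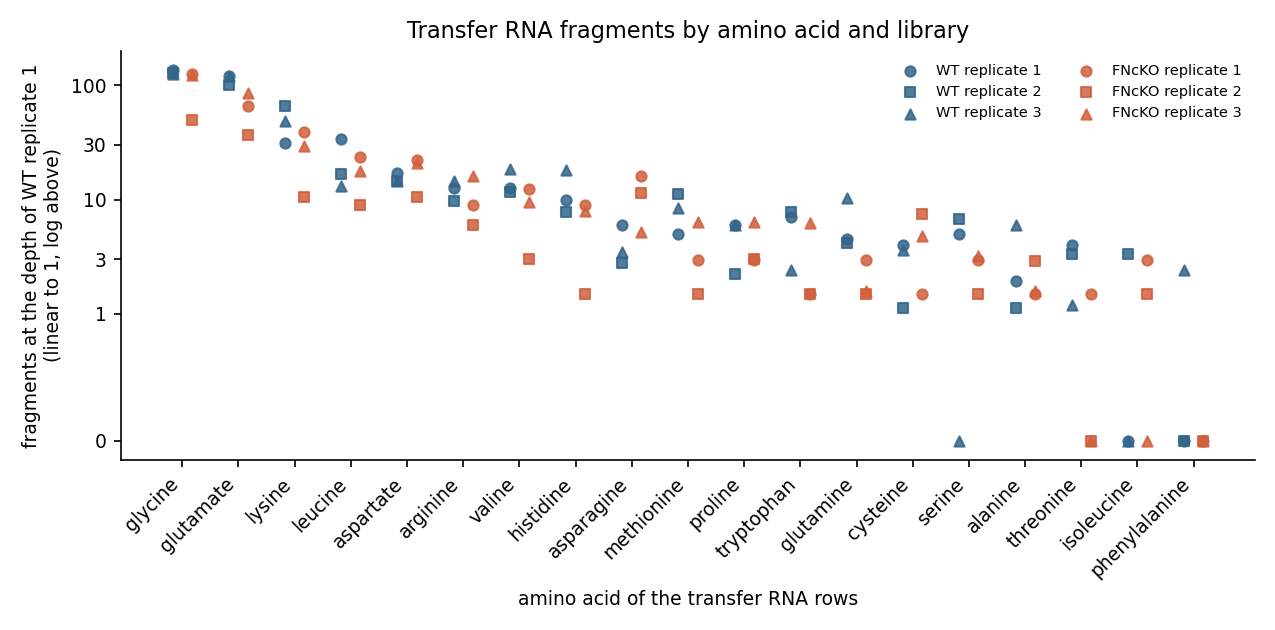
Fragments at the depth of WT replicate 1 (y axis, linear to 1 and logarithmic above) for each amino acid (x axis), with 1 mark per library, WT in blue and FNcKO in orange. Glycine and glutamate lead in every library, glutamate and glutamine show no overlap between genotypes, and FNcKO replicate 2 is the lowest library in both of the leading amino acids.

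Glutamate transfer RNAs read the GAA and GAG codons, through the anticodons UUC and CUC. The 16 rows, with equal rows counted once, summed to 3041, 2504 and 2779 FPKM in WT (2775 ± 269, SD, n = 3). In FNcKO the sums were 1470, 971 and 2190 FPKM (1544 ± 613, SD, n = 3). At equal depth the CUC rows held 68.6, 59.7 and 72.7 fragments in WT against 42.2, 20.02 and 49.1 in FNcKO. The UUC rows held 51.3, 40.6 and 46.8 fragments in WT against 23.2, 16.3 and 36.9 in FNcKO. The groups did not overlap for either anticodon.

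Single glutamate rows did not pass the test used here. Genotypes were compared with limma on log2(FPKM + 1) over all 10149 rows with a mean of at least 1 FPKM, with Benjamini-Hochberg adjusted p-values and a threshold of 0.05. The leading row of all members, n-TEttc1 (chr1:34434812-34434883), whose values are shared by 1 other row, stood at 1647, 1341 and 1444 FPKM in WT and 800, 717 and 1281 FPKM in FNcKO. Every FNcKO library lay under every WT library, with a log2 change of -0.71 (SE 0.23) and a limma adjusted p of 0.201. The 8 rows led by n-TEctc5 held 778, 684 and 837 FPKM in WT and 488, 231 and 558 FPKM in FNcKO, a log2 change of -0.94 with a limma adjusted p of 0.229. n-TEttc3 and the 1 row with equal values stood at 54.6, 225.1 and 10.1 FPKM in WT and at 0 in FNcKO, with a limma adjusted p of 0.0634. In WT replicate 3 that was 0.09 fragments.

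Glycine transfer RNAs read the GGN codons. Their 26 rows, with equal rows counted once, summed to 4495, 4214 and 4185 FPKM in WT (4298 ± 171, SD, n = 3). In FNcKO the sums were 4031, 1646 and 3919 FPKM (3198 ± 1346, SD, n = 3). The highest FNcKO library lay close under the lowest WT library, so most of the gap between the means came from FNcKO replicate 2. At equal depth the UCC rows held 84, 70.4 and 66.1 fragments in WT against 83.1, 31.5 and 73.6 in FNcKO. The GCC rows held 27.3, 31.9 and 33.1 fragments in WT against 19.02, 7.51 and 30.04 in FNcKO, and the CCC rows 23, 24.6 and 24.04 in WT against 23.7, 9.01 and 19.2 in FNcKO. Genotypes overlapped for each of these 3 anticodons, and FNcKO replicate 2 was the lowest library in each. The leading glycine row, n-TGccc7 (chr17:25875088-25875158), stood at 980, 1040 and 1119 FPKM in WT and 1091, 441 and 862 FPKM in FNcKO, with overlap and a limma adjusted p of 0.504.

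Glutamine held the only transfer RNA rows that passed the test. These rows were at 0 in every FNcKO library, so they reached the minimum of 1 FPKM only through WT. Values of 0 throughout FNcKO have no spread, which makes the SE small, so their p-values are no support for a difference. Of the 237 members, 5 rows were called lower in FNcKO and 0 higher (2.11% of the rows). Over all 10149 rows, limma called 192 (1.89%), of which 105 were lower (1.03%) and 87 higher (0.857%). The part of all calls that were higher was 45.3%, and 56.0%, 72.04% and 60.4% after median-ratio, same-total and quantile scaling. Under each of these, 3 sets of transfer RNA were called lower and 0 higher. Scaling by a factor leaves a 0 at 0 and could hardly move sets that are at 0 in FNcKO, so the unchanged count supports nothing. The 5 rows are 3 sets of 115 (2.61%), or 2 where the missing value of n-TQctg9 is set aside, all with the anticodon CUG, which reads the codon CAG. Without WT replicate 2, limma called 7 sets lower, and without WT replicate 3 it called 5, which were these 3 with n-TLcaa4 and n-TEttc3. Without FNcKO replicate 3, 2 sets were called higher, n-TNgtt11 and n-TRtcg5. The share of members called was near that of all rows. At an unadjusted limma p under 0.05 were 11 sets (9.57%), 9 lower and 2 higher, against 18.1% of all rows.

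The called glutamine rows rested on very few fragments. n-TQctg6 (chr11:69124607-69124678), n-TQctg7 (chr13:21172351-21172422) and a row named Trnaq-cug (chr13:21933961-21934032) were each at 46.2, 25.8 and 55.5 FPKM in WT and at 0 in every FNcKO library. These values are 0.5, 0.25 and 0.5 fragments. The log2 change was -5.38 (SE 0.27), with a limma adjusted p of 0.00129. n-TQctg9 (chr9:64738046-64738117) had no value in WT replicate 2 and was at 46.2 and 55.5 FPKM in the other WT libraries, or 0.5 fragments in each, and at 0 in FNcKO. Its log2 change was -5.69 (SE 0.10) on 5 libraries, with a limma adjusted p of 0.000167. Its values equalled those of the n-TQctg6 set wherever it had one.

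The remaining called set was the leading glutamine row, another Trnaq-cug at chr13:21920200-21920271. It was at 46.2, 51.6 and 360.9 FPKM in WT, or 0.5, 0.5 and 3.25 fragments, and at 0 in FNcKO. The log2 change was -6.59 (SE 0.78), with a limma adjusted p of 0.0235. That call was lost when any 1 library other than WT replicate 3 was left out (limma adjusted p from 0.0612 to 0.0847), and with a pseudocount of 10 FPKM (0.0892).

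The remaining CUG rows differed from these. n-TQctg5 and the 2 rows equal to it were at 0, 25.8 and 83.3 FPKM in WT and at 0, 46.2 and 0 FPKM in FNcKO. FNcKO replicate 2 thus lay above WT replicates 1 and 2. n-TQctg2 was above 0 only in WT replicate 3, at 166.6 FPKM. Over the 8 CUG rows present in all columns, WT held 2, 2 and 8.5 fragments and FNcKO held 0, 1 and 0, not scaled for depth. The UUG rows, which read the codon CAA, held 2.5, 1.75 and 0 fragments in WT against 2, 0 and 1 in FNcKO, and overlapped. The glutamine rows present in all columns, with equal rows counted once, summed to 169.4, 190.9 and 666.3 FPKM in WT. In FNcKO they summed to 128.0, 46.2 and 147.8 FPKM. The ratio of the means, 3.19, depended on WT replicate 3: the log2 ratio was -1.67 with it and -0.75 without it.

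**Figure D3:**
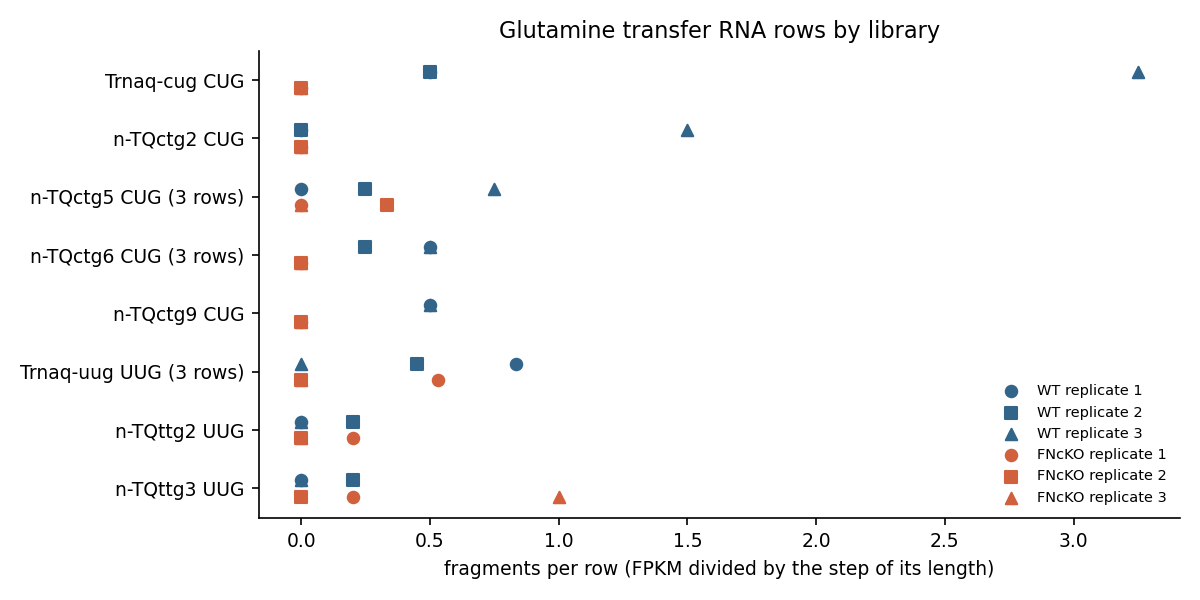
Fragments per row (x axis) for each distinct set of glutamine transfer RNA values (y axis, with the anticodon and the number of rows that share the values), 1 mark per library, with equal values drawn over each other. FNcKO marks of the 3 called sets are all at 0, while WT marks stand at 0.25 or 0.5 fragments except for 3.25 in WT replicate 3 of the single Trnaq-cug row.

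Asparagine ran the other way. Its transfer RNA has the anticodon GUU. Its 10 rows, with equal rows counted once, summed to 269.9, 104.7 and 153.8 FPKM in WT. In FNcKO the sums were 835.3, 570.4 and 207.7 FPKM, with overlap. In fragments at equal depth, where every row counts, the sums were 5.94, 2.76 and 3.47 in WT and 16.07, 11.4 and 5.19 in FNcKO. The leading row n-TNgtt8 (chr11:97702449-97702522; 4 rows with equal values) stood at 73.3, 40.9 and 44.0 FPKM in WT and 163.1, 123.8 and 73.2 FPKM in FNcKO. Its lowest FNcKO library lay just under its highest WT library, the log2 change was 1.15 (SE 0.35), and the limma adjusted p was 0.181. With equal rows counted once, cysteine had 230.9, 25.8 and 166.6 FPKM in WT and 137.1, 381.5 and 443.3 FPKM in FNcKO. Its FNcKO mean was also higher, with overlap, as were those of isoleucine and proline. In fragments at equal depth, where every row counts, proline had the lower mean in FNcKO (4.12, against 4.75 in WT). The leading cysteine row, n-TCgca51, was at 184.7, 0 and 111.1 FPKM in WT and 137.1, 277.4 and 443.3 FPKM in FNcKO.

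Lysine and the other middle-sized groups mostly overlapped. The 16 lysine rows, with equal rows counted once, summed to 687, 1678 and 921 FPKM in WT and 1131, 134 and 794 FPKM in FNcKO. WT replicate 2 was the highest library and FNcKO replicate 2 the lowest. The leading lysine row n-TKctt17 stood at 348.8, 887.4 and 366.9 FPKM in WT and at 711.9, 0 and 488.2 FPKM in FNcKO. Leucine, the amino acid with the most distinct sets (17 in 23 rows), held 34, 16.8 and 13.2 fragments at equal depth in WT against 23.7, 9.01 and 17.6 in FNcKO. Its leading row n-TLcaa3 was at 98.9, 55.2 and 178.4 FPKM in WT and 73.4, 74.3 and 79.1 FPKM in FNcKO, so the FNcKO libraries lay between the WT libraries.

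The 14 aspartate rows held 17, 14.5 and 14.4 fragments at equal depth in WT against 22.3, 10.5 and 20.8 in FNcKO, with a higher FNcKO mean and overlap. In FPKM with equal rows counted once, the FNcKO mean was the lower one. The 13 equal rows led by n-TDgtc4 stood at 120.8, 103.2 and 76.9 FPKM in WT and 158.2, 74.7 and 147.8 FPKM in FNcKO, a log2 change of 0.29 with a limma adjusted p of 0.696. Arginine held 12.7, 9.68 and 14.4 fragments at equal depth in WT against 8.91, 6.01 and 16.2 in FNcKO. Its leading row n-TRcct2 was at 436.0, 194.8 and 733.9 FPKM in WT and 647.2, 131.0 and 558.0 FPKM in FNcKO, so the genotypes overlapped widely.

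Valine, histidine, methionine and tryptophan had lower FNcKO means with overlap in FPKM. At equal depth valine held 12.7, 11.5 and 18.4 fragments in WT against 12.4, 3.0 and 9.6 in FNcKO, with overlap, and its leading row n-TVtac1 stood at 203.5, 259.7 and 174.7 FPKM in WT and 215.7, 0 and 139.5 FPKM in FNcKO. Histidine held 10, 7.82 and 18.03 fragments at equal depth in WT against 8.91, 1.5 and 8.0 in FNcKO, with overlap, and n-THgtg4 stood at 115.5, 87.4 and 206.7 FPKM in WT and 99.03, 17.3 and 88.2 FPKM in FNcKO. In both, FNcKO replicate 2 was the lowest of the 6 libraries. Methionine, whose transfer RNAs serve both initiation and elongation, was led by the 7 equal rows of n-TMcat7 at 59.4, 105.0 and 83.3 FPKM in WT and 36.7, 19.8 and 55.4 FPKM in FNcKO. Those groups did not overlap, with a log2 change of -1.20 (SE 0.40) and a limma adjusted p of 0.202. The tryptophan row n-TWcca5 was at 567.4, 103.2 and 111.1 FPKM in WT and 137.1, 0 and 168.9 FPKM in FNcKO, and WT replicate 1 alone was above 200.

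For 6 amino acids fewer than 20 fragments were counted over all 6 libraries. They are alanine, cysteine, phenylalanine, isoleucine, serine and threonine. For 18 of the 41 anticodons fewer than 10 were counted. The phenylalanine rows were above 0 only in WT replicate 3, with n-TFgaa3 and the rows equal to it at 41.9 FPKM each. The isoleucine rows, led by n-TIaat5, were at 0, 34.5 and 0 FPKM in WT and 30.6, 15.5 and 0 FPKM in FNcKO. The threonine row n-TTagt5 was at 82.4, 276.1 and 0 FPKM in WT and at 122.3, 0 and 0 FPKM in FNcKO. The alanine row n-TAagc14 was at 43.6, 0 and 52.4 FPKM in WT and 0, 109.1 and 46.5 FPKM in FNcKO. The serine row n-TSgct3 was at 13.6, 60.8 and 0 FPKM in WT and 26.9, 0 and 21.8 FPKM in FNcKO. Proline is not among the 6 amino acids. Its leading row n-TPtgg4 was at 115.5, 25.8 and 100.4 FPKM in WT and 10.5, 10.7 and 71.04 FPKM in FNcKO. None of the 6 rows named in this paragraph had a limma adjusted p under 0.403.

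Most log2 changes of transfer RNA rows were under 0. This held for 155 of the 237 rows (65.4%) and 79 of the 115 sets (68.7%), against 60.3% of all rows tested. The median was -0.71 over the rows and -1.07 over the sets, against -0.04 over all rows. The FNcKO libraries lay under the WT libraries without overlap in 30 rows (12.7%) and 11 sets (9.57%), and above in 0. Over all rows tested, 16.3% lay below and 9.31% above. The share of members below was thus no larger than that of all rows. Because a value of 0 against a fraction of a fragment gives a large log2 change, the 33 sets above 0 in every library with a value are a closer guide. They still include values that are nearly 0, such as n-TNgtt11 at 0.000365 FPKM in WT replicate 2 and 0.00629 FPKM in FNcKO replicate 3. Of the 33 sets, 24 had a log2 change under 0, with a median of -0.52, 4 lay below without overlap and 0 passed the test (lowest limma adjusted p 0.181).

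Sets at 0 in a whole genotype were mostly thin. In 27 sets every FNcKO library was at 0, and 8 sets were at 0 in every WT library with a value. The 27 sets held between 0.11 and 5.73 fragments over the WT libraries, with a median of 2. Of these, 4 were above 0 in every WT library with a value. They are the 3 called glutamine sets and the set of n-TEttc3. Of the 21 sets above 0 in exactly 1 library, 14 were seen in WT.

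**Figure D4:**
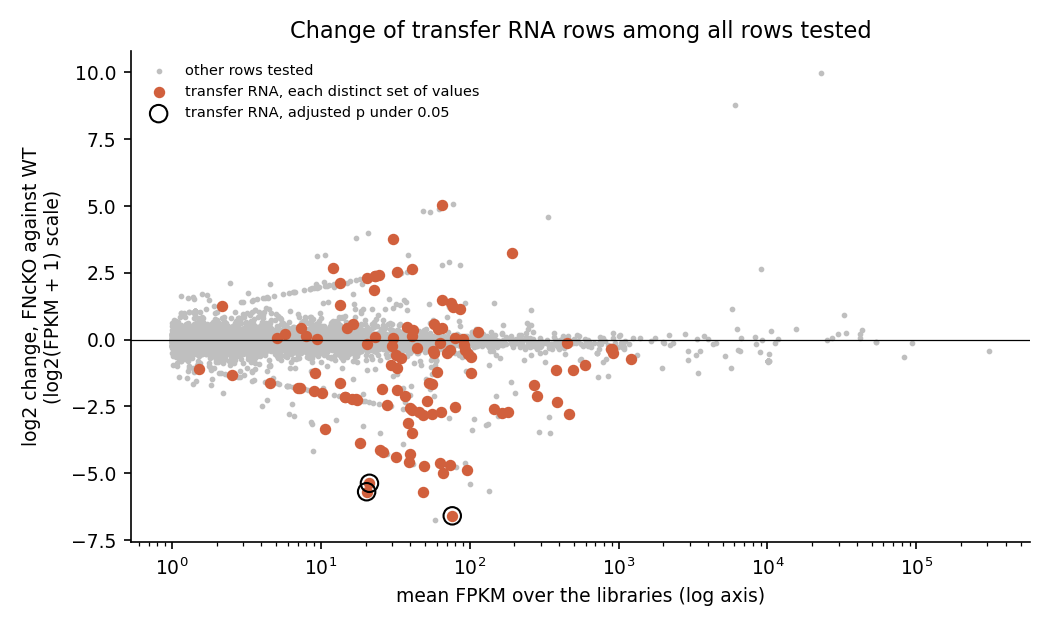
Mean FPKM over the libraries (x axis, logarithmic) against the log2 change of FNcKO against WT on the log2(FPKM + 1) scale (y axis) for all 10149 rows tested, with the 115 distinct transfer RNA sets in orange and the 3 sets with an adjusted p under 0.05 ringed. The ringed sets lie between -5.38 and -6.59.

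By position, the members formed 73 clusters when gaps of more than 1000000 bases were taken to separate them. The largest, at chr13:21160785-22050767, held 35 rows of 13 amino acids with a median log2 change of -0.52. The cluster at chr13:23298781-23530419 held 24 rows of 12 amino acids with a median of -1.40. On chromosome 1, chr1:171033942-171111515 held 25 rows with a median of -0.57, and on chromosome 3, chr3:96322074-97681530 held 25 rows with a median of -1.15. The 15 rows at chr11:69037003-69125248 had a median of 0.07. Equal values are shared between clusters, so these medians are not independent.

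The other RNAs that RNA polymerase III makes were examined from a list of 34 rows, all tested. None passed the test, 26 (76.5%) had an unadjusted limma p under 0.05, against 18.1% of all rows, and all 34 had a log2 change under 0 (median -0.80). Of these, 25 are rows of 5S ribosomal RNA, the small RNA of the large ribosomal subunit, and are near copies of each other. The row with the smallest p, n-R5s138, was at 13146, 13341 and 11687 FPKM in WT and 9170, 4704 and 8747 FPKM in FNcKO, and the next, n-R5s117, at 13109, 13368 and 11600 FPKM in WT and 9201, 4722 and 8733 FPKM in FNcKO. All 25 5S rows lay lower in FNcKO without overlap, with limma adjusted p from 0.208 to 0.262. Quantile normalization moved their median log2 change from -0.81 to -0.10.

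RNAs outside the 5S family differed from one another. Rny3, a Y RNA bound by the Ro protein, was at 103822, 113096 and 84649 FPKM in WT and 77077, 45892 and 72058 FPKM in FNcKO, without overlap and with a limma adjusted p of 0.245. Rn7s1, the RNA of the signal recognition particle, was at 41680, 80299 and 47311 FPKM in WT and 51648, 44973 and 55963 FPKM in FNcKO, with overlap and a log2 change of -0.09. Rpph1, the RNA of the ribonuclease P that trims the 5′ end of transfer RNA, was at 6043, 13796 and 7509 FPKM in WT and 7040, 6902 and 9068 FPKM in FNcKO, a log2 change of -0.17. FNcKO replicate 2 was the lowest library for the transfer RNA sum, 5S, Rny3, Rny1 and Rmrp, but not for Rn7s1, Rpph1, Bc1 or Vaultrc5. What sets that library apart was not tested.

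**Figure D5:**
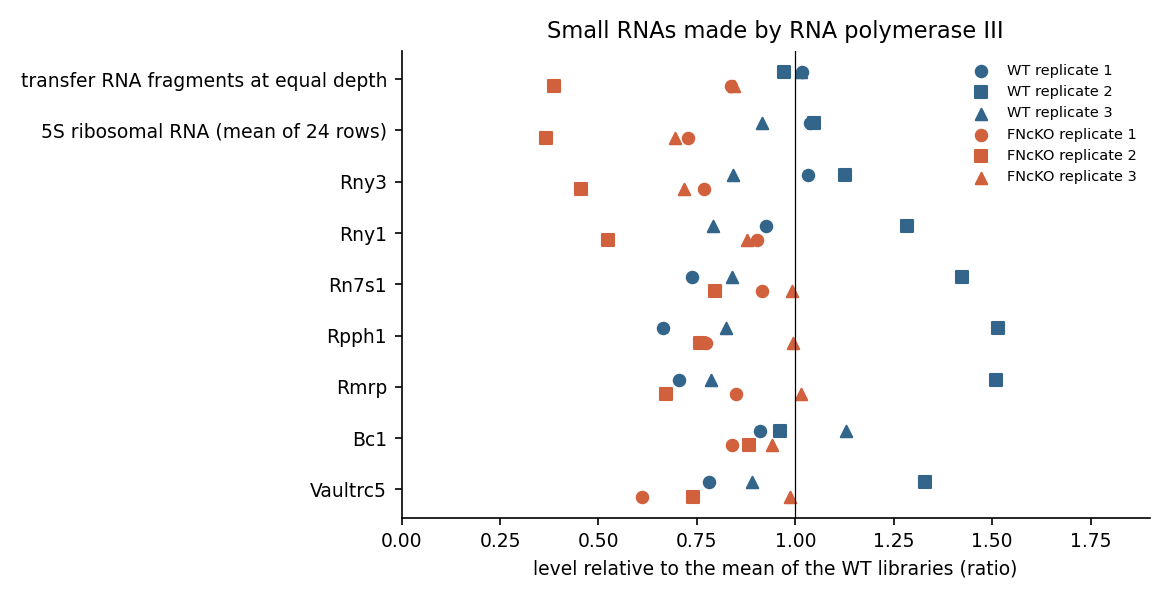
Level of each RNA relative to the mean of the 3 WT libraries (x axis, ratio) for the summed transfer RNA fragments at equal depth, the mean of 24 5S rows and 7 other RNAs made by RNA polymerase III (y axis), with 1 mark per library. All FNcKO marks lie left of all WT marks for transfer RNA, 5S and Rny3, and genotypes overlap for the other RNAs.

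Of 33 tested genes of the RNA polymerase III machinery, 0 passed in either direction, and 7 (21.2%) had an unadjusted limma p under 0.05, against 18.1% of all rows. Their log2 changes ran from -0.65 to 0.39 with a median of -0.10. Of the 33, 25 were under 0 (75.8%, against 60.3% of all rows), and 7 lay below without overlap (21.2%, against 16.3%). Brf2, a subunit of the initiation factor for promoters outside the gene, was at 0.979, 1.21 and 0.974 FPKM in WT and 1.5001, 1.5654 and 1.5025 FPKM in FNcKO (limma adjusted p 0.158). Polr2e, a subunit shared by the RNA polymerases, was at 10.2, 11.9 and 12.1 FPKM in WT and 8.62, 9.53 and 9.29 FPKM in FNcKO (0.172). Among 22 genes of transfer RNA processing and export and 34 of modification, 0 passed, with 3 (13.6%) and 5 (14.7%) at an unadjusted limma p under 0.05, and medians of -0.05 and -0.02. Rpp21, a protein of ribonuclease P, had a log2 change of -0.57 and a limma adjusted p of 0.193. Xpo5, an exportin, had a log2 change of -0.23 (0.211). The methyltransferase genes Trmt1 and Trmt6 had log2 changes of -0.24 (0.188) and 0.25 (0.206).

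Of the 23 cytosolic synthetase genes, 1 passed (4.35%, against 1.89% of all rows, or 0.857% called higher), and 7 (30.4%) had an unadjusted limma p under 0.05. Tars, which charges threonine transfer RNA, rose from 5.57, 5.09 and 5.20 FPKM in WT to 7.06, 8.17 and 7.73 FPKM in FNcKO, a log2 change of 0.46 (SE 0.07) with a limma adjusted p of 0.0442. The call was lost when any 1 library was left out (limma adjusted p from 0.0603 to 0.164). The median of the 23 genes was 0.04.

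The libraries held lens RNA. All 10 lens fiber markers were above the minimum, with a summed level of 71588 to 75211 FPKM in WT and 78433 to 83528 FPKM in FNcKO. None of them passed the test, and 6 of the 10 lay above WT without overlap, against 9.31% of all rows tested. The 6 lens epithelium markers summed to 37742 to 40752 FPKM in WT and 44204 to 46258 FPKM in FNcKO, without overlap. Of these, 1 (16.7%), Epha2, rose (limma adjusted p 0.0422). Over all rows tested, 1.89% were called. The targeted gene Fn1 was near 0 throughout, at 0.135, 0.188 and 0.253 FPKM in WT and 0.128, 0.0482 and 0.0942 FPKM in FNcKO. Of 8 photoreceptor markers 6 were tested and 1 (16.7%), Gnat1, fell, with a limma log2 change of -1.05 (adjusted p 0.022). Gnat1 went from 18.9 and 22.2 FPKM in WT (no value in replicate 2) to 8.84, 9.64 and 9.77 FPKM in FNcKO. Of 6 genes listed as ciliary and iris markers 5 were tested and 1, Aqp1, rose. The summed level of the list was 24.03 to 34.8 FPKM in WT and 55.6 to 73.7 FPKM in FNcKO. Aqp1 itself was at 4.19, 5.48 and 6.14 FPKM in WT and 11.1, 18.4 and 17.3 FPKM in FNcKO. Aqp1 was thus only part of the rise in the sum. Of the 5 tested genes, 2 lay above WT without overlap and 1 below, and the median log2 change was 0.47. Whether Aqp1 or the other listed genes mark those tissues in these lens libraries was not tested. None of 6 leukocyte and 6 pigment markers reached the minimum. The part of cells from other eye tissues in the transfer RNA values was not tested.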

How the data were processed

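Total RNA of 6 lens libraries was sequenced with a stranded kit for very small inputs, per the labels' protocols. The authors deposited FPKM values in 1 table. The submitters' processing notes name TopHat2 2.1.0, Cuffdiff 2.2.1, cutadapt 1.12 and FastQC as tools and mm10 and GRCm38.p5 as builds. Not given in the sources used here: annotation, use of strand, handling of fragments that map to several places, size selection and scaling between libraries. Reads of overlapping or antisense genes therefore cannot be separated, and near-identical copies have uncertain values.

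The members and gene lists were chosen with earlier results of these data known. Rows whose symbol begins with Trna or n-T and whose mean over the libraries with a value was at least 1 FPKM were kept, and rows with equal values in every library were counted once within an amino acid. The 3578 rows without a value in WT replicate 2 were fitted on 5 libraries, and 1 unreadable value was treated as missing. Start positions were raised by 1. The comparison of genotypes used log2(FPKM + 1) in limma 3.58.1 (R 4.3.3), two-sided, with a mean-variance trend and Benjamini-Hochberg adjustment over 10149 rows. The added 1 FPKM shrinks the log2 change of rows near that level. In transfer RNA rows, 0 against a fraction of a fragment instead gives a large log2 change. For n-TQctg6 it went from -5.38 to -0.87 with a pseudocount of 50 FPKM. The fit was checked on simulated data. The unit of 1 fragment was read in each library from rows of 71 bases that are not transfer RNA. It was carried to other lengths by the most common ratio, so fragments are inferred from the FPKM. In WT replicate 2 and in FNcKO replicate 3 the unit rested on 1 value, taken as 1 fragment. With 3 libraries per genotype, each p-value weighs the difference between genotypes against the spread between these libraries. That spread is moderated toward the trend over all rows tested.

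Rows named are those past the test, the row with the highest mean in each amino acid, and per list the genes past the test or else the 2 with the smallest p. n-TEctc5, n-TEttc3, n-TQctg5, n-TQctg2, n-TLcaa4, n-TNgtt11, n-TRtcg5, n-TRtct2, n-TRtcg4, n-TRccg2, Rny3, Rn7s1 and Rpph1 were named after their values were seen. Sequences came from GENCODE M21 on GRCm38, and 2 rows are shown. Alternatives changed the pseudocount, the filter, the scaling, the treatment of equal rows, the variance estimate, the replicate block and the libraries used. Whole amino acid sums in depth-scaled fragments were added after seeing the data.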

Additional observations from a re-analysis of the deposited data

How the results depend on the processing

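Transfer RNA sets called lower numbered 3, 2 to 4 under the pseudocounts, filters, scalings and fits tried, and 2 to 7 with 1 library left out. The count of sets called higher was 0, and 0 to 2 with 1 library left out. All rows called numbered 192, and 101 without a filter on low values, 93 with the same FPKM total, 323 with robust empirical Bayes, 14 with the replicate block and 48 to 111 with 1 library left out. Same-numbered libraries did not deviate together (correlations -0.03, -0.05 and -0.05), so the numbers do not pair them. With the block, n-TQctg6 and n-TQctg9 had a limma adjusted p of 0.0256 each and the leading Trnaq-cug row 0.11. That row also lost its call with a pseudocount of 50 FPKM (0.217), no filter (0.0515) and robust empirical Bayes (0.053). Pathway genes called numbered 1, and 2 with a pseudocount of 0.1, with median-ratio scaling, with quantile normalization and with equal rows fitted once, 3 with a mean of at least 5 FPKM and with robust empirical Bayes, 0 with a pseudocount of 10, no filter or the same FPKM total, and 0 to 2 with 1 library left out. The cause was not tested. The log2 change of n-TRcct2, -0.13, reversed to 0.12 with the same FPKM total and to 0.061 with quantile normalization, and ran from -0.64 to 0.60 with 1 library left out. Leaving out 1 library also reversed n-TSgct3 (-1.80 to 1.38), n-TAagc14 (-1.49 to 2.44), n-TLcaa3 (-0.81 to 0.031) and n-TKctt17 (-4.46 to 0.28). Of 538 values of named rows under alternatives, 502 kept their direction and side of the threshold. Scaling moved the median log2 change of all rows from -0.04 to -0.01, 0.15 and 0.01, and that of the transfer RNA sets from -1.07 to -1.03, -0.84 and -0.86 (median-ratio, same total and quantile), with 77 to 79 of 115 sets under 0. The log2 ratio of summed transfer RNA, -0.51 with equal rows counted once, was -0.54 in fragments at equal depth, where every row counts. Those fragments come from the same FPKM values, so they are no separate check of depth. Depth limits most rows: 51.8% of the values above 0 stand for less than 1 fragment, and strain cannot be told apart from genotype.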

Other observations

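Mitochondrial transfer RNAs, which the mitochondrial genome encodes and its own polymerase transcribes, showed no common direction. Of 22 rows, 16 were tested and 6 were at 0 in every library with a value. WT replicate 2 had no value in any of them, so WT is represented by 2 libraries. None passed limma at an adjusted p of 0.05, and 0 had an unadjusted p under 0.05. TrnG was at 3653 and 4250 FPKM in WT and 4548, 1770 and 2262 FPKM in FNcKO, with overlap. TrnV was at 442.6 and 665.1 FPKM in WT and 328.5, 498.5 and 1062 FPKM in FNcKO. TrnN was at 293.9 and 235.6 FPKM in WT and 145.4, 0 and 0 FPKM in FNcKO, with a limma adjusted p of 0.312, and TrnT at 0 in both WT libraries and at 186.6, 0 and 201.0 FPKM in FNcKO (0.382). The summed level was 5915 and 6397 FPKM in WT and 7347, 4412 and 4639 FPKM in FNcKO, and the groups overlapped.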
